A study of Mus musculus with 9 samples.

Results

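Semaphorins are secreted or membrane-bound guidance proteins, plexins are their main receptors, and neuropilins are co-receptors that many of the secreted semaphorins need. The genes described here are the mouse semaphorins of classes 3 to 7, the plexins, both neuropilins and the genes Plxdc1 and Plxdc2, whose proteins carry a plexin-like domain without being plexins. They were chosen by symbol alone, from array probe sets that name a single gene, and each gene was read from its brightest probe set over the 9 arrays. The rule found 35 probe sets for 33 genes, among 19938 genes in all. These are 20 semaphorins, 9 plexins, 2 neuropilins and the 2 Plxdc genes.

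RNA was measured on 9 Affymetrix mouse gene arrays, 3 per group, in dendritic cells grown from bone marrow progenitors. The first group carried a retroviral hairpin against JmjD2d, the histone H3 lysine 9 demethylase encoded by Kdm4d, and had 4 h of LPS at 100 ng/ml. The second was cells labelled wild-type and given the same LPS. The third was cells labelled wild-type, without stimulation. The sample titles name no hairpin or vector for the wild-type cells. LPS is the bacterial lipopolysaccharide sensed by Toll-like receptor 4. Progenitors of all groups were cultured with SCF, IL-3 and IL-6, each at 20 ng/ml, and differentiated over 8 days in 4% GM-CSF supernatant, the first 4 days with SCF at 5 ng/ml. The hairpin came in the pSir-delta U6CHisD vector with selection in 2 mM histidinol, per the labels' protocols. No array of a control hairpin or of unstimulated knockdown cells was analysed here, so infection and selection cannot be told apart from loss of JmjD2d. The labels call the replicates biological.

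A semaphorin binds a plexin on a neighbouring cell, and the plexin's cytoplasmic part acts on small GTPases, which changes adhesion and the cytoskeleton. In the immune system several of these proteins act at contacts between dendritic cells and T cells and in cell migration. Sema4a on dendritic cells costimulates T cells, Sema7a engages an integrin on macrophages, and plexin-A1 takes part in T cell stimulation and migration of dendritic cells.

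All values are deposited log2 levels made with RMA, and a gene was called changed at an adjusted p under 0.05 in limma, with adjustment over the 19938 genes. A second model with the replicate number as a block is called the paired model. Array medians lay between 7.217 and 7.315, and the lowest and highest correlation between replicates, taken over genes, were 0.985 and 0.997. Kdm4d had log2 levels of 7.43, 7.11 and 7.40 in knockdown cells after LPS, against 7.79, 7.54 and 7.74 in LPS-treated wild-type cells and 7.24, 7.65 and 7.62 in unstimulated wild-type cells. The knockdown values were below all wild-type LPS values, by a log2 difference of -0.37 (SE 0.13) that did not pass the test (adjusted p = 0.278). The dendritic cell label was checked on 12 marker genes, of which 10 were above the level of olfactory receptor genes, Itgax and H2-Ab1 among them, and Flt3 and Xcr1 were not. The summed log2 level of the 12 ranged from 13.01 to 14.12 in knockdown cells after LPS, from 14.27 to 15.02 in wild-type cells after LPS and from 13.98 to 15.14 in unstimulated wild-type cells. Replicate 2 was the lowest of each group in S100a9, Ltf and Camp, genes of neutrophils. S100a9 had log2 levels of 11.30, 6.93 and 11.01 in knockdown cells after LPS, against 11.87, 8.36 and 10.82 in LPS-treated wild-type cells and 11.04, 7.81 and 9.004 in unstimulated wild-type cells. The summed log2 level of 8 neutrophil genes ranged from 11.73 to 13.75 in knockdown cells, from 12.54 to 14.17 in LPS-treated wild-type cells and from 12.01 to 13.36 in unstimulated wild-type cells. Of the 8, Csf3r was called higher after LPS in wild-type cells (adjusted p = 0.0194), and between knockdown and wild-type cells after LPS none was called and Mpo was lower in the paired model (0.032). The part of these neutrophil genes in the results was not tested. Leaving replicate 2 out cannot test it, since every other difference of replicate 2 is removed as well. In a bulk sample, fewer cells of a type and less RNA per cell cannot be told apart.

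The level of 1027 olfactory receptor genes, which dendritic cells are not known to use, served as a working floor. Its 95th percentile was a log2 level of 6.96, and 23 of the 33 genes (69.7%) had a group mean above it, against 64.4% of all genes. The 10 genes not above it in any group were Plxna4, Plxnb2, Sema3a, Sema3c, Sema3d, Sema3e, Sema4f, Sema4g, Sema5a and Sema6d. In 14 of the 33 genes at least 2 arrays held exactly the same value, which was so in 41.1% of all genes. Sema6b's 2 probe sets held the same value on all 9 arrays. Sema4d had a second, dimmer probe set with log2 levels of 7.96 to 8.34. It read 8.24, 8.10 and 8.34 in wild-type cells after LPS and 8.22, 7.96 and 8.24 in unstimulated cells, which overlap. In knockdown cells after LPS it read 8.24, 8.28 and 8.24.

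LPS changed 5 of the 33 genes in wild-type cells, with 3 higher, against 3.99% of all genes, and 2 lower, against 6.86%. The promoters of these 5 are shown because they are the genes of the families that moved with stimulation. For a gene with several windows, the first listed in the RefSeq table is shown. Each is the 250 bases before a transcription start in RefSeq GRCm38.p6, written from 5′ to 3′ on the gene's strand. Capitals mark matches, on either strand, to the GC box (GGGCGG), the AP-1 site (TGANTCA), the interferon response core (GAAANNGAA), the PU.1 site (GAGGAAGT) or the NF-kB consensus. No base was shared by matches of different motifs, and adjoining GC boxes can share a base.
Sema7a (chr9:57939862-57940111, plus strand): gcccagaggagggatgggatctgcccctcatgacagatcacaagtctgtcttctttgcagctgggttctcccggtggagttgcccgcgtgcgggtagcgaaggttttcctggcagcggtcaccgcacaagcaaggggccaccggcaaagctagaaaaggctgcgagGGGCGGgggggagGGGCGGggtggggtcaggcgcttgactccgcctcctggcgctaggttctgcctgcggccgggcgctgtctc
Nrp2 (chr1:62703067-62703316, plus strand): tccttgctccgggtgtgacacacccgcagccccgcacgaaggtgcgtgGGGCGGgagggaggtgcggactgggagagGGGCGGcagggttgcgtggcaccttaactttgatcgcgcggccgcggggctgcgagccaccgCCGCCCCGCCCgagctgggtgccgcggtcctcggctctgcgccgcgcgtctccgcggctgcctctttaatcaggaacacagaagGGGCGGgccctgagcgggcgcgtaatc
Sema4d (chr13:51748811-51749060, minus strand): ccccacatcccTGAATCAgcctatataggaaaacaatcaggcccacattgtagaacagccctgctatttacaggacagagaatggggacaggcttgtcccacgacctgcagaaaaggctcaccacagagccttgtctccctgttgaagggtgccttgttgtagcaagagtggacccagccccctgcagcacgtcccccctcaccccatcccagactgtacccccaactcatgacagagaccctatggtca
Sema4b (chr7:80186620-80186869, plus strand): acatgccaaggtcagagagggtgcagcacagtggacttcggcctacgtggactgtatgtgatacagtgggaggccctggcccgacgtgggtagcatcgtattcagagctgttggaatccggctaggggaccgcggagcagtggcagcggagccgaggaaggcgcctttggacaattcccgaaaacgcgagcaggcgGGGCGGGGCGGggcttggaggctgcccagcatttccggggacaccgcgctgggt
Sema6b (chr17:56140344-56140593, minus strand): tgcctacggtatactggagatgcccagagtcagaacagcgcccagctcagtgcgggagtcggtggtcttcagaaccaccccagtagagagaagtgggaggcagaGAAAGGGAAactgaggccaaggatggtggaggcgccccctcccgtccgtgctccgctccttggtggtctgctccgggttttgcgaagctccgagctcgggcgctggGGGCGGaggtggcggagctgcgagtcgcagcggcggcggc
The Sema7a window held 2 GC boxes, with a GC content of 66.4% and 17 CpG dinucleotides. The Nrp2 window held 5 GC boxes, a GC content of 72.4% and 32 CpG dinucleotides. The Sema4d window, 1 of 3 for that gene, held 1 AP-1 match and 2 CpG dinucleotides at a GC content of 55.2%. All 3 lay inside the gene's span, chr13:51685529-51793678, and none at its 5′ end, so they stand for internal starts only. The Sema4b window, 1 of 2, held 2 GC boxes and 20 CpG dinucleotides at 64.4% GC. The Sema6b window, 1 of 2, held 1 interferon response core and 1 GC box, with 20 CpG dinucleotides at 66.0% GC. The other Sema6b window held 1 AP-1 match, 1 GC box and 5 CpG dinucleotides. The other windows of Sema4d held no AP-1 match, and 1 of them held a GC box, while the other Sema4b window held 2 GC boxes. The median over all 32851 RefSeq windows of this length was 52.4% GC and 6 CpG dinucleotides. Of the 33 genes, 26 had a window and the 26 had 37 windows in all. GC boxes were in 73.0% of these 37 windows, against 32.7% of all windows. The GC content of the 37 ran from 40.8% to 78.4%, and the part of base composition in the GC box share was not tested. NF-kB matches were in 5.41% of the 37, against 3.9% of all, and AP-1 matches in 8.11%, against 6.75%. Interferon response cores were in 10.8% of the 37, against 7.13% of all, and PU.1 matches in none of the 37, against 2.44%. A match is a string of letters and no measurement of a factor's binding.

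The response to LPS in wild-type cells was led by Sema7a, the only class 7 semaphorin and a protein anchored in the membrane by a glycolipid. Its log2 levels were 9.52, 8.83 and 9.50 after LPS, against 7.71, 7.38 and 7.09 in unstimulated cells. All LPS values were above all unstimulated values. The rise was 3.71-fold (log2 difference 1.89, SE 0.27, 95% confidence interval 1.28 to 2.50, adjusted p = 0.00456). Nrp2, a co-receptor for class 3 semaphorins and VEGF ligands, had log2 levels of 10.79, 10.73 and 10.68 after LPS, against 9.60, 9.02 and 9.003 in unstimulated cells. It rose 2.88-fold (log2 difference 1.53, SE 0.23, adjusted p = 0.0056), with no overlap between the groups.

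The class 4 semaphorins are membrane proteins that act in immune cells. Sema4d, also called CD100, which uses plexin-B1 and CD72 as receptors, had log2 levels of 11.84, 11.99 and 11.84 after LPS, against 11.33, 11.58 and 11.17 in unstimulated cells. It rose 1.44-fold (log2 difference 0.53, SE 0.10, adjusted p = 0.0148), and the groups did not overlap. In its dimmer probe set the groups overlapped, so the rise rests on the brighter probe set. Sema4b moved the other way, with log2 levels of 9.15, 9.47 and 9.04 after LPS, against 9.996, 9.92 and 9.66 in unstimulated cells. It fell 1.56-fold (log2 difference -0.64, SE 0.12, adjusted p = 0.0156), with every LPS value below every unstimulated value. Sema6b, a class 6 transmembrane semaphorin, had log2 levels of 8.05, 8.13 and 7.94 after LPS, against 8.43, 8.83 and 8.55 in unstimulated cells, also without overlap. It fell 1.48-fold (log2 difference -0.57, SE 0.11, adjusted p = 0.017). Sema4a, another class 4 semaphorin, had a log2 difference of 0.24 (adjusted p = 0.338), and its groups overlapped.

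In the paired model 3 of the 33 genes were higher and 4 lower, where 5.19% of all genes were higher and 9.57% lower. The 2 genes it added are Plxdc1 and Plxnc1. Plxdc1, tumour endothelial marker 7, had log2 levels of 7.46, 7.32 and 7.42 after LPS, against 8.27, 7.64 and 7.94 in unstimulated cells, a log2 difference of -0.55 (adjusted p = 0.0501, in the paired model 0.0362). Plxnc1, the plexin receptor of Sema7a, had 12.08, 11.59 and 12.01 after LPS, against 12.81, 12.00 and 12.61 in unstimulated cells. Its log2 difference was -0.58 (adjusted p = 0.127, in the paired model 0.0185), and the groups overlapped. The groups did not overlap in 9 of the 33 genes, against 29.3% of all genes, and 5 of the 9 had their LPS values above. Of the 33 genes 22 had a log2 difference above 0, against 59.7% of all genes, and the median difference over the 33 was 0.084, against 0.040 over all genes. With the 3 arrays of replicate 2 left out together, 3 genes were higher and 5 lower, adding Plxdc1, Plxdc2 and Plxnc1. That setting called 4909 of all 19938 genes, against 2164 with all arrays. Sema7a and Nrp2 kept the call when any 1 of the 9 arrays was left out. Sema4d lost it without unstimulated replicate 1 (adjusted p = 0.0573), Sema4b without wild-type LPS replicate 1, wild-type LPS replicate 3 or unstimulated replicate 1 (0.0622 to 0.0629), and Sema6b without wild-type LPS replicate 1, wild-type LPS replicate 3 or unstimulated replicate 3 (0.0546 to 0.0748).

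**Figure D1:**
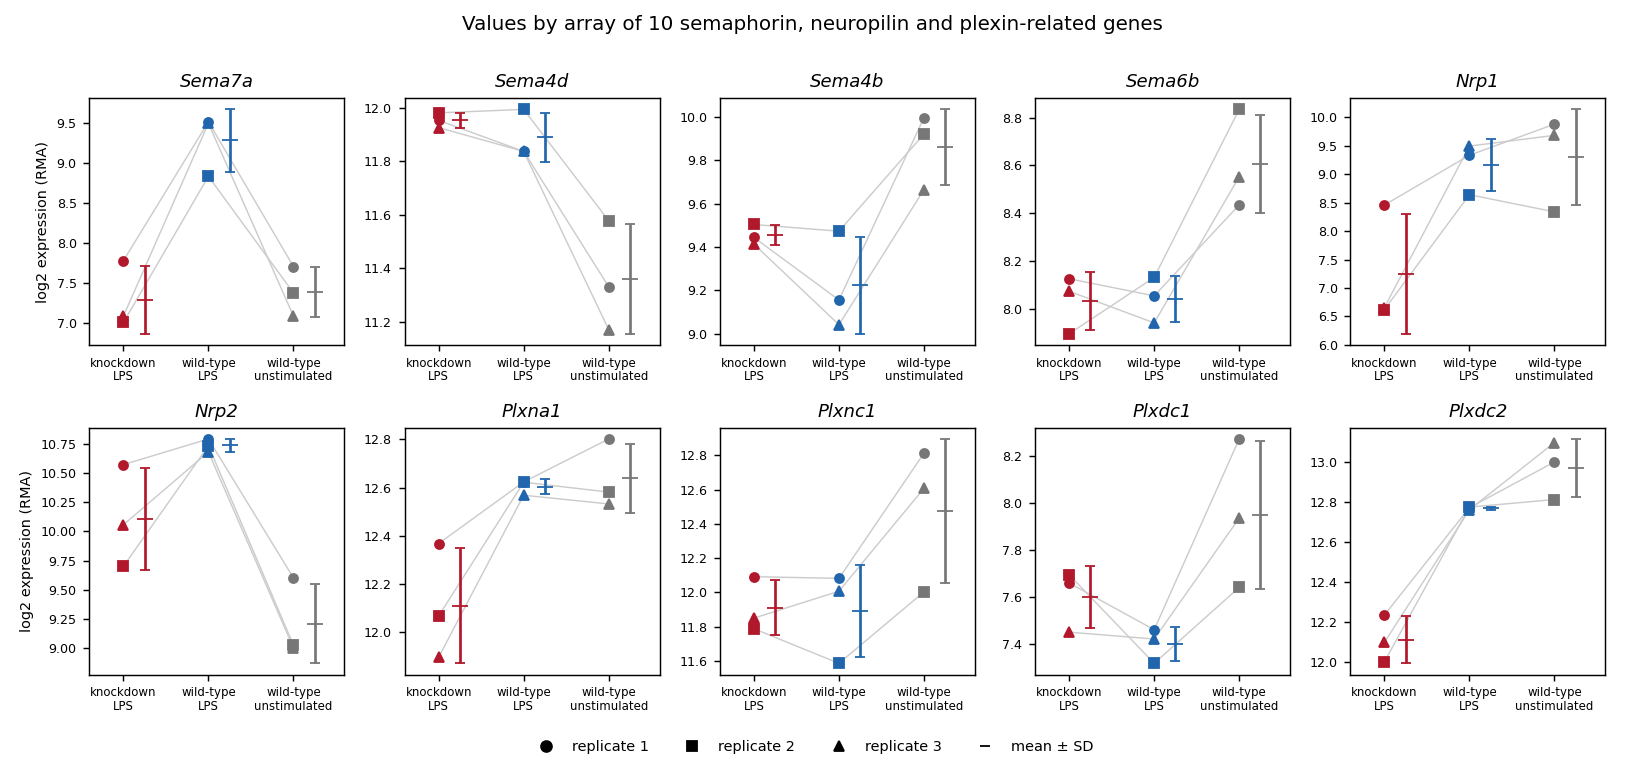
Log2 levels of 10 genes on each array, from left to right in knockdown cells after LPS, wild-type cells after LPS and unstimulated wild-type cells. Marker shapes give the replicate number, grey lines join arrays of the same number, and bars beside the points are the mean ± SD of 3 arrays. Sema7a lay at 7.01 to 7.78 in knockdown cells, at 8.83 to 9.52 in LPS-treated wild-type cells and at 7.09 to 7.71 in unstimulated cells.

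The knockdown comparison asks which of these genes differed with the hairpin under LPS. Sema7a was lower in knockdown cells, with log2 levels of 7.78, 7.01 and 7.08, against 9.52, 8.83 and 9.50 in wild-type cells after LPS. No knockdown value reached the lowest wild-type LPS value. The level was 3.98-fold lower (log2 difference -1.99, SE 0.27, 95% confidence interval -2.60 to -1.38, adjusted p = 0.0199). The differences between arrays of the same number were -1.74, -1.83 and -2.41. Against unstimulated wild-type cells, the knockdown cells after LPS differed in Sema7a by a log2 of -0.10 (95% confidence interval -0.71 to 0.51, adjusted p = 0.908), with overlapping values. Some of these values lay close to the olfactory receptor level of 6.96, at 7.01 and 7.08 in knockdown cells and 7.09 in unstimulated cells.

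The receptors of Sema7a were read beside it. Plxnc1 had log2 levels of 12.09, 11.79 and 11.85 in knockdown cells after LPS, against 12.08, 11.59 and 12.01 in wild-type cells after LPS, a log2 difference of 0.02 (95% confidence interval -0.47 to 0.51). Itgb1, the integrin subunit beta 1, which with Itga1 forms an integrin that binds Sema7a, had log2 levels of 11.89, 11.99 and 11.85 in knockdown cells after LPS, against 12.40, 12.33 and 12.48 in wild-type cells after LPS. It was lower by a log2 difference of -0.49 (SE 0.065, adjusted p = 0.0198), without overlap. It lost the call without knockdown replicate 1, knockdown replicate 3, wild-type LPS replicate 1 or wild-type LPS replicate 3 (adjusted p = 0.0569 to 0.0938). Itga1 was not above the olfactory receptor level in any group.

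Plxdc2, which encodes a membrane protein with a plexin-like domain that is a receptor for the factor PEDF, was the other member called. Its log2 levels were 12.23, 12.00 and 12.10 in knockdown cells after LPS, against 12.77, 12.77 and 12.76 in LPS-treated wild-type cells and 13.00, 12.81 and 13.10 in unstimulated wild-type cells. The knockdown values lay below all 6 wild-type values. It fell 1.58-fold against wild-type cells after LPS (log2 difference -0.66, SE 0.088, adjusted p = 0.0199). Plxdc1 differed by 0.20 in the same comparison (adjusted p = 0.612), with overlapping groups.

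Both neuropilins lay lower in knockdown than in wild-type cells after LPS, and neither passed the test. In the paired model Nrp1 passed it and Nrp2 did not. Nrp1, which binds class 3 semaphorins and VEGF, had log2 levels of 8.46, 6.62 and 6.66 in knockdown cells after LPS, against 9.33, 8.64 and 9.49 in LPS-treated wild-type cells and 9.88, 8.34 and 9.68 in unstimulated wild-type cells. All knockdown values were below all wild-type LPS values, and knockdown replicate 1 lay above unstimulated replicate 2. Knockdown replicates 2 and 3, at 6.62 and 6.66, lay below the olfactory receptor level of 6.96. The log2 difference from wild-type cells after LPS was -1.91 (SE 0.57, 95% confidence interval -3.22 to -0.60, adjusted p = 0.185, in the paired model 0.0456). Within replicate numbers it was -0.88, -2.02 and -2.84. Nrp2 had 10.57, 9.70 and 10.06 in knockdown cells after LPS, against 10.79, 10.73 and 10.68 in wild-type cells after LPS, a log2 difference of -0.63 (SE 0.23, adjusted p = 0.287, in the paired model 0.088). In unstimulated wild-type cells Nrp2 lay lower, at 9.60, 9.02 and 9.003, and the knockdown cells were 1.87-fold above them (log2 difference 0.90, SE 0.23, adjusted p = 0.0403).

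Plxna1, which forms a receptor complex with Trem2 and Tyrobp on myeloid cells and binds class 6 semaphorins, had log2 levels of 12.37, 12.07 and 11.90 in knockdown cells after LPS, against 12.62, 12.62 and 12.57 in LPS-treated wild-type cells and 12.80, 12.58 and 12.53 in unstimulated wild-type cells. The knockdown values lay below all 6 wild-type values. The log2 difference from wild-type cells after LPS was -0.49 (SE 0.12, adjusted p = 0.118, in the paired model 0.0417), and LPS itself gave -0.03 (adjusted p = 0.875). Sema4a is named here because its values were seen to lie apart. It had 11.49, 11.61 and 11.48 in knockdown cells after LPS, against 12.49, 11.87 and 12.25 in LPS-treated wild-type cells and 12.14, 11.88 and 11.88 in unstimulated wild-type cells. Its log2 difference from wild-type cells after LPS was -0.68 (SE 0.15, adjusted p = 0.087, in the paired model 0.0564), and its knockdown values too lay below all 6 wild-type values.

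Sema4d, Sema4b and Sema6b, which changed with LPS in wild-type cells, did not pass the test between knockdown and wild-type cells after LPS. Sema4d had 11.95, 11.98 and 11.92 in knockdown cells, against 11.84, 11.99 and 11.84 in wild-type cells, a log2 difference of 0.06 (95% confidence interval -0.17 to 0.30). Sema4b had 9.44, 9.50 and 9.41 in knockdown cells, against 9.15, 9.47 and 9.04 in wild-type cells, a difference of 0.23 (95% confidence interval -0.05 to 0.51, adjusted p = 0.485). Sema6b had 8.12, 7.89 and 8.07 in knockdown cells, against 8.05, 8.13 and 7.94 in wild-type cells, a difference of -0.01 (95% confidence interval -0.27 to 0.25). The groups overlapped in all 3 genes.

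Of the 33 genes limma called 0 higher in knockdown than in wild-type cells after LPS, against 0.401% of all genes, and none was higher at an unadjusted p under 0.05, against 7.32% of all genes. It called 2 lower, Sema7a and Plxdc2, against 0.361% of all genes. At an unadjusted p under 0.05, 6 were lower, against 5.79% of all genes. The paired model called 0 higher and 4 lower, adding Nrp1 and Plxna1, where 1.51% of all genes were higher and 1.24% lower. The knockdown values lay below all wild-type LPS values in 7 of the 33 genes, against 8.38% of all genes, and above them in none, against 8.21%. The 7 were Sema7a, Plxdc2, Sema4a, Plxna1, Nrp1, Nrp2 and Sema6d. Below all 6 wild-type values lay 3 genes, Plxdc2, Plxna1 and Sema4a, which is 9.09%, against 3.53% of all genes, and above them lay none, against 3.28%. Of the 33 genes 9 had a log2 difference above 0, against 40.6% of all genes, and the median difference over the 33 was -0.086, against -0.028 over all genes. With the 3 arrays of replicate 2 left out together, 0 were higher and 3 lower, Sema7a (log2 difference -2.08, adjusted p = 0.0268), Plxdc2 (-0.60, 0.0263) and Sema4a (-0.88, 0.0268). That setting called 668 of all 19938 genes, against 152 with all arrays. Sema7a lost the call without knockdown replicate 2 (adjusted p = 0.0562), knockdown replicate 3 (0.0907), wild-type LPS replicate 1 (0.0972) or wild-type LPS replicate 3 (0.0995). Plxdc2 lost it without the same 4 arrays (0.0543, 0.0907, 0.0916 and 0.0947, in that order). Without wild-type LPS replicate 2, Sema4a was called as well (log2 difference -0.84, adjusted p = 0.0225).

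**Figure D2:**
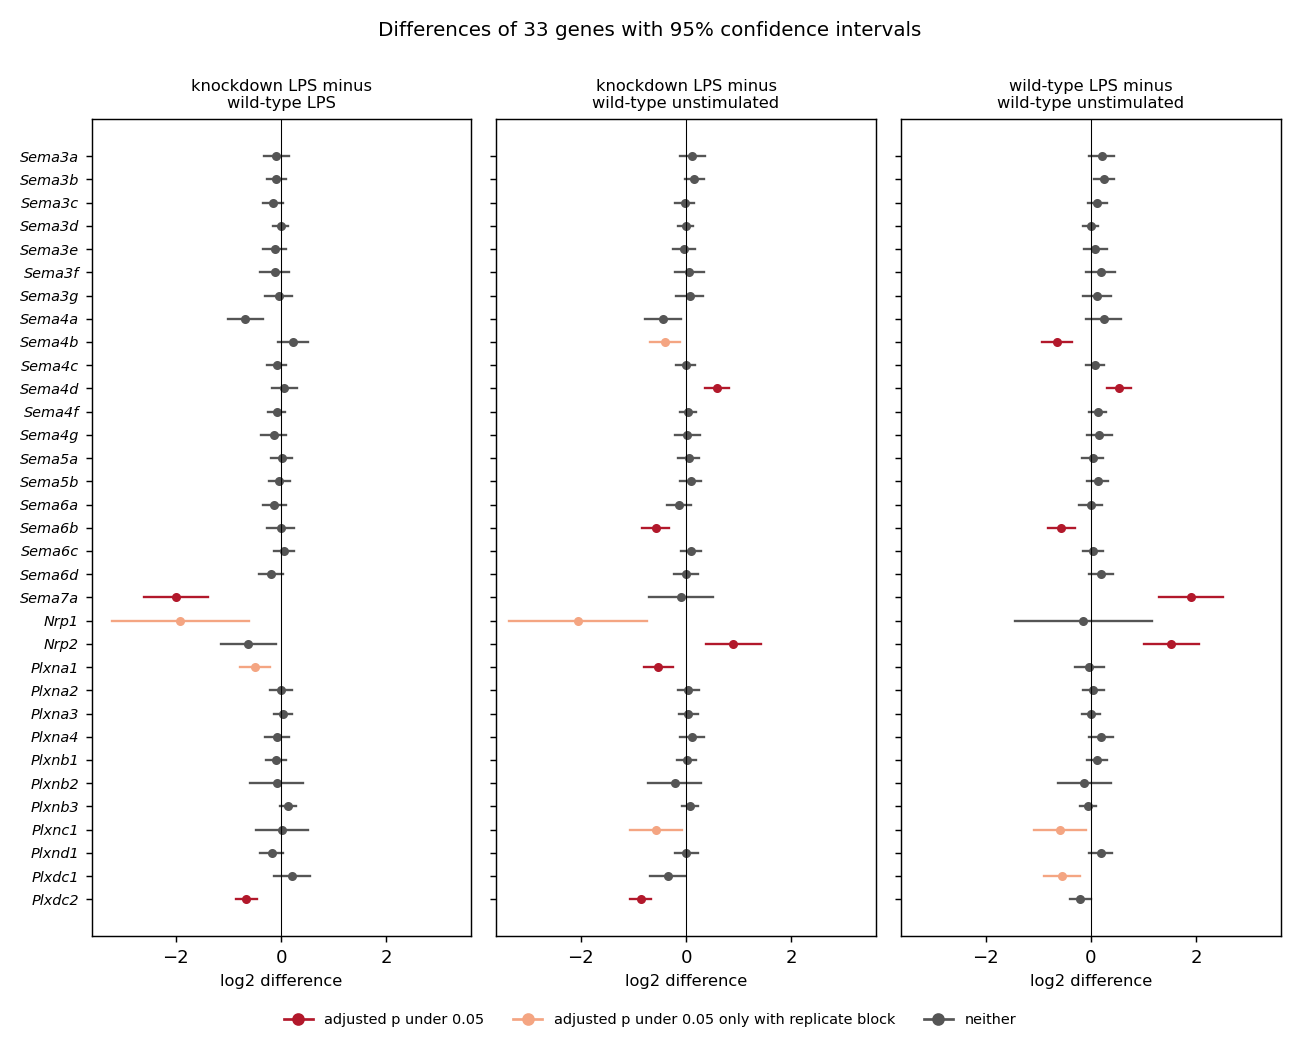
Log2 differences with 95% confidence intervals of the 33 genes, in 3 panels from left to right for knockdown against wild-type cells after LPS, knockdown cells after LPS against unstimulated wild-type cells, and wild-type cells after LPS against unstimulated cells. Dark red marks an adjusted p under 0.05, light orange a call in the paired model alone, and grey neither. Sema7a lies at -1.99 in the first panel, at -0.10 in the second and at 1.89 in the third.

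The remaining comparison set knockdown cells after LPS against unstimulated wild-type cells, so it combines hairpin and stimulus and shares its groups with the other comparisons. It called 2 of the 33 genes higher, Sema4d and Nrp2, against 4.23% of all genes, and 3 lower, Plxdc2, Sema6b and Plxna1, against 6.64% of all genes. Sema4d, in its brighter probe set, had a log2 difference of 0.59 (SE 0.10, adjusted p = 0.00862). Plxdc2 had -0.86 (SE 0.088, adjusted p = 0.00111), Sema6b -0.58 (SE 0.11, adjusted p = 0.0153) and Plxna1 -0.53 (SE 0.12, adjusted p = 0.0285). In the paired model 2 were higher and 6 lower, adding Nrp1 (-2.05, adjusted p = 0.0562, in the paired model 0.0124), Plxnc1 (-0.56, 0.152, in the paired model 0.0204) and Sema4b (-0.41, 0.0761, in the paired model 0.0342), where 5.62% of all genes were higher and 8.65% lower. With the 3 arrays of replicate 2 left out together, 2 were higher and 6 lower, among them Nrp1 but not Plxna1 (adjusted p = 0.0904). Plxdc2 and Sema4d kept the call without any 1 array. Nrp2 lost it without knockdown replicate 1 or 3, any of the 3 wild-type LPS arrays or unstimulated replicate 2 or 3 (adjusted p = 0.0521 to 0.141), Plxna1 without knockdown replicate 2 or 3, wild-type LPS replicate 3 or any of the 3 unstimulated arrays (0.0501 to 0.0958), and Sema6b without knockdown replicate 3 (0.0501).

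The other 23 genes, those called in no comparison by either model, showed small differences except for Sema4a. They include all class 3 semaphorins, secreted ligands most of which signal through neuropilins and plexin-A receptors, both class 5 semaphorins and most of the plexins. Their log2 differences between LPS and no stimulation ran from -0.13 in Plxnb2 to 0.25 in Sema3b, with a smallest adjusted p of 0.0926. Between knockdown and wild-type cells after LPS they ran from -0.68 in Sema4a to 0.13 in Plxnb3, with a smallest adjusted p of 0.087. Plxnd1, a receptor of class 3 semaphorins with a role in blood vessels, had log2 levels of 12.65, 12.68 and 12.60 in knockdown cells after LPS, against 12.96, 12.64 and 12.87 in LPS-treated wild-type cells and 12.76, 12.55 and 12.61 in unstimulated wild-type cells. Sema6d, a ligand of plexin-A1, had values not above the olfactory receptor level, at 5.95, 5.85 and 5.93 in knockdown cells after LPS, against 6.35, 5.95 and 6.01 in wild-type cells after LPS. The median standard error of a difference over the 33 genes was 0.0996, and 3 arrays a group limit what could be detected.

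The pathway list holds 72 partners, ligands and signalling genes around these families, of which 68 were measured. Among its 68 genes LPS raised 4, against 3.99% of all genes, and lowered 5, against 6.86%, with a median log2 difference of 0.035. The paired model called 8 higher, against 5.19% of all genes, and 7 lower, against 9.57%. Met, the receptor tyrosine kinase that plexin-B1 couples to, had log2 levels of 13.01, 13.07 and 13.04 after LPS, against 11.39, 11.52 and 10.67 in unstimulated cells (log2 difference 1.85, SE 0.21, adjusted p = 0.00188). The protease genes Adam17, which sheds membrane proteins (0.66, adjusted p = 0.00974), and Mmp14, a membrane matrix metalloprotease (0.95, adjusted p = 0.0328), also rose. Mical1, an oxidoreductase that acts on actin downstream of plexins, fell by 1.35 on the log2 scale (adjusted p = 0.00708), and the plexin partner Trem2, an adaptor-coupled receptor, fell by 0.39 (adjusted p = 0.0289). Rictor (0.57) was higher, and Fes (-0.59), Adam10 (-0.32) and Limk1 (-0.48) were lower. Met, Mical1 and Adam17 kept the call without any 1 array. The other 6 each lost it without wild-type LPS replicate 1, wild-type LPS replicate 3 or unstimulated replicate 3, and some without further arrays (adjusted p = 0.0523 to 0.152 over the lost calls).

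In the knockdown comparison the list had 1 gene higher, against 0.401% of all genes, and 1 lower, against 0.361%, with a median difference of -0.041. Vegfb, a ligand of Flt1 and neuropilin-1, had log2 levels of 10.55, 10.47 and 10.34 in knockdown cells after LPS, against 9.63, 9.87 and 9.61 in wild-type cells after LPS (log2 difference 0.75, SE 0.12, adjusted p = 0.0418). It lost the call without any of the 3 knockdown arrays, wild-type LPS replicate 1 or 3, or unstimulated replicate 1 or 3 (adjusted p = 0.0671 to 0.155). The gene lower was Itgb1. The paired model called 2 higher, against 1.51% of all genes, and 5 lower, against 1.24%. Mical1 had log2 levels of 10.46, 10.21 and 10.12 in knockdown cells after LPS, against 9.70, 9.39 and 8.91 in wild-type cells after LPS, a log2 difference of 0.93 (adjusted p = 0.102, in the paired model 0.0225). The paired model also called Cd72, a receptor of Sema4d on B cells, with log2 levels of 7.53, 7.39 and 6.94 in knockdown cells after LPS, against 8.44, 9.23 and 8.27 in wild-type cells after LPS (-1.36, adjusted p = 0.0654, in the paired model 0.0433). Flt1, a VEGF receptor, had 9.86, 8.37 and 9.86 in knockdown cells after LPS, against 11.17, 10.28 and 10.96 in wild-type cells after LPS (-1.44, adjusted p = 0.315, in the paired model 0.0201), and without knockdown replicate 2 the difference was -0.94. Fyn, a kinase gene, had 7.94, 7.64 and 6.91 in knockdown cells after LPS, against 9.37, 8.71 and 8.88 in wild-type cells after LPS (-1.49, adjusted p = 0.117, in the paired model 0.0424). Rras2, a Ras-related GTPase gene, had 8.69, 7.86 and 7.57 in knockdown cells after LPS, against 10.62, 9.36 and 10.59 in wild-type cells after LPS (-2.15, adjusted p = 0.117, in the paired model 0.0234). In these 5 genes, named because the paired model called them, the values of both groups did not overlap. Over all genes the knockdown values lay below all wild-type LPS values in 8.38% and above them in 8.21%. Knockdown replicate 3 lay below the olfactory receptor level of 6.96 in Cd72 and Fyn. Against unstimulated wild-type cells 4 of the 68 were higher, against 4.23% of all genes, and 9 lower, against 6.64%. The paired model called 8 higher, against 5.62% of all genes, and 11 lower, against 8.65%. Fyn was lower there by a log2 of 2.05 (adjusted p = 0.0102), Trem2 by 0.72 (adjusted p = 0.00261), and Met was higher by 1.69 (adjusted p = 0.00243), and these 3 kept the call without any 1 array. Rictor (0.53) and Adam17 (0.53) were also higher, and Dpysl2 (-0.47), Ranbp9 (-0.52), Itgb1 (-0.33), Cd72 (-1.28) and Fes (-0.60) lower. Each of these 7 lost the call without knockdown replicate 3 or unstimulated replicate 3 or both, and some without further arrays (adjusted p = 0.0501 to 0.0887 over the lost calls).

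**Figure D3:**
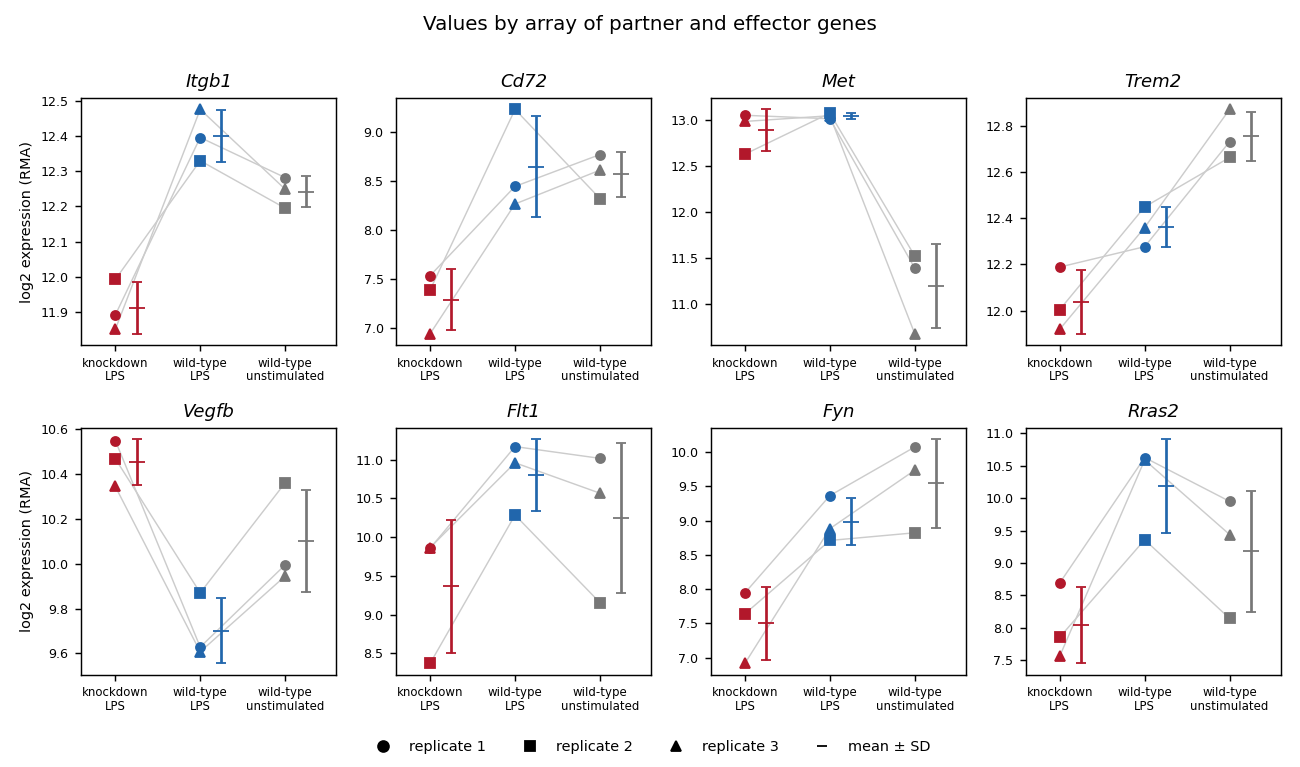
Log2 levels of 8 partner and signalling genes on each array, in the order knockdown cells after LPS, wild-type cells after LPS and unstimulated wild-type cells, with the same markers, lines and mean ± SD bars of 3 arrays. Itgb1 lay at 11.85 to 11.99 in knockdown cells, at 12.33 to 12.48 in wild-type cells after LPS and at 12.20 to 12.28 in unstimulated cells.

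Markers of other cell types are given next, since some moved with the groups. The mast cell and basophil list, of 9 genes, had a summed log2 level of 10.49 to 11.08 in knockdown cells after LPS, of 12.53 to 12.75 in LPS-treated wild-type cells and of 11.21 to 11.97 in unstimulated wild-type cells. None of its genes was called between knockdown and wild-type cells after LPS, and 3 were lower in the paired model, against 1.24% of all genes. Of the 9, 5 were not above the olfactory receptor level, among them Fcer1a and Ms4a2. After LPS in wild-type cells Hdc, the histamine-forming enzyme, was the brightest of the 9 and was called higher (log2 difference 3.23, adjusted p = 0.00758), while Kit, the receptor of SCF, had a difference of -1.03 (adjusted p = 0.104). The macrophage list spanned 14.73 to 15.37 in knockdown cells, 15.07 to 15.57 in LPS-treated wild-type cells and 15.03 to 15.71 in unstimulated wild-type cells, and none of its 11 measured genes was called between knockdown and wild-type cells after LPS. The fibroblast and stroma list spanned 10.51 to 10.68 in knockdown cells, 11.23 to 11.45 in LPS-treated wild-type cells and 10.25 to 10.78 in unstimulated wild-type cells, with Pdgfrb called lower in knockdown cells (log2 difference -1.49, adjusted p = 0.0418). It lost the call without any of the 3 knockdown arrays, wild-type LPS replicate 1 or 3, or unstimulated replicate 1 (adjusted p = 0.0681 to 0.154). Of 6 endothelial genes, 4 were not above the olfactory receptor level, Cdh5 and Tek among them, and the list spanned 10.50 to 11.10 in knockdown cells, 10.57 to 10.98 in LPS-treated wild-type cells and 10.56 to 11.49 in unstimulated wild-type cells. Of the 12 dendritic cell genes, limma called 1 lower in LPS-treated knockdown cells than in LPS-treated wild-type cells, against 0.361% of all genes, and the paired model called 6, against 1.24%. The gene was Cd86, a T cell costimulatory ligand (log2 difference -2.47, SE 0.25, adjusted p = 0.00929), which lost the call without wild-type LPS replicate 1 (0.0557) or 3 (0.0521). The part of these shifts in the differences of Sema7a, Nrp1 and Plxdc2 was not tested.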

How the data were processed

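The deposited values are log2 levels per probe set that the authors made with RMA, per the submitters' processing notes. RMA subtracts background, normalizes between arrays and summarises a probe set. The RMA version is not given in the sources used here. No further normalization was applied. Of 35556 probe sets, 23410 were in the platform's gene table, 21789 named a single gene and 1621 several. Symbols were updated through RefSeq GRCm38.p6 (21698 matched). The probe set with the highest mean over 9 arrays represented each of 19938 genes.

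A mean per group was fitted with limma 3.58.1 in R 4.3.3 (statmod 1.5.0), with two-sided moderated tests, Benjamini-Hochberg adjustment over the 19938 genes and a threshold of 0.05. Residual degrees of freedom were 6, and the prior added 2.31. Deviations from group means correlated by 0.138 to 0.481 in the 9 pairs of arrays with the same replicate number. In the 18 other pairs they correlated by -0.414 to 0.254, so the ranges overlap. The labels do not say that a number marks a shared culture, so the block is given as a second model. A summed level is the log2 of a list's summed linear values. Promoter windows and motifs came from RefSeq GRCm38.p6.

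The genes and lists were chosen with earlier results of these data known. Per-array values are given for the semaphorins, plexins, neuropilins and Plxdc genes called in any comparison by either model, and called pathway genes are named by smallest p, up to 10 per comparison. Alternatives were the replicate block, quantile normalization, a filter on dim genes, the mean of probe sets, all probe sets together, an intensity trend with robust prior, each array left out and, chosen after seeing the data, the 3 arrays of replicate 2 left out together.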

Additional observations from a re-analysis of the deposited data

How the results depend on the processing

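With the replicate number as a block, 4 of the 33 genes were lower after LPS, 4 were lower in knockdown than in wild-type cells after LPS, and 6 were lower in knockdown cells after LPS than in unstimulated wild-type cells; beyond the genes named above, the block changed no other call among the 33. Testing every deposited probe set together left 1 gene higher in knockdown cells after LPS than in unstimulated wild-type cells, where Nrp2 had an adjusted p of 0.0621, and quantile normalization again gave Sema6b 0.0507 there. Plxdc1 was also called lower after LPS with quantile normalization again, with dim genes left out and with the intensity trend, and Nrp1 was called lower than in unstimulated wild-type cells with dim genes left out. With only replicates 1 and 3, a setting chosen after seeing the data, 5 genes were lower after LPS and 6 were lower in knockdown cells after LPS than in unstimulated wild-type cells. With 1 array left out, the counts after LPS were 2 to 7 higher and 0 to 4 lower, those in knockdown against wild-type cells after LPS 0 to 0 higher and 0 to 3 lower, and those in knockdown cells after LPS against unstimulated wild-type cells 1 to 2 higher and 1 to 5 lower. Without wild-type LPS replicate 2 the 7 higher after LPS included Sema3a, Sema3c, Sema4a and Sema4g. Of these, Sema3a, Sema3c and Sema4g were not above the olfactory receptor level in any group. That setting called 3424 of all 19938 genes. Over all genes, calls with 1 array left out ran from 891 to 3424 after LPS (2164 with all arrays, 2943 with the block). In the knockdown comparison such calls ran from 18 to 383 (152 with all arrays, 548 with the block). Replicates 1 and 3 alone gave 4909 calls over all genes after LPS and 668 in the knockdown comparison. Among the 10 genes called in any comparison, uncalled differences that changed sign with 1 array left out were those of Nrp1 (-0.63 to 0.15) and Plxna1 (-0.087 to 0.048) after LPS, Plxnc1 (-0.13 to 0.11, and -0.073 with replicates 1 and 3) and Sema6b (-0.061 to 0.057, 0.0091 after quantile normalization again and 0.10 with replicates 1 and 3) in the knockdown comparison, and Sema7a (-0.34 to 0.058, and 0.035 with replicates 1 and 3) in knockdown cells after LPS against unstimulated wild-type cells. The call of Vegfb in the knockdown comparison was lost after quantile normalization again (adjusted p = 0.0513) and with every probe set (0.0757). After LPS, Limk1 lost its call under quantile normalization again (0.105), every probe set (0.0708) and the intensity trend (0.0555), Adam10 under every probe set (0.0672) and the trend (0.0523), and Mmp14 under every probe set (0.0523). Causes were not tested.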
